A study of Mus musculus with 9 samples.

Results

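The 9 genes *Ccr1*, *Ccr2*, *Ccr7*, *Ccr9*, *Cxcr3*, *Cxcr4*, *Cxcr5*, *Cx3cr1* and *Xcr1* encode chemokine receptors of leukocytes. They were taken by gene symbol from the expression values of R848-stimulated plasmacytoid dendritic cells (pDCs), and each symbol had 1 row among the 52550 genes listed. The experiment held 9 samples, 3 each from WT mice (G/G) and from mice heterozygous (G/A) or homozygous (A/A) for an *Ncf1* knockin allele that encodes NCF1 p.R90H. All groups shared the C57BL/6 strain, spleen as the tissue and R848, a TLR7/-8 ligand, for 12 hours, at 10 μg/mL by the methods. All values come from 1 library, A/A replicate 1. With 8 libraries not analysed here, no value has a replicate error and no genotypes were compared. The founder animals were made with CRISPR/Cas9 and crossed with C57BL/6J mice. The number of founder lines and any pooling of animals are not given in the sources used here.

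Chemokine receptors are G protein–coupled receptors that steer a cell along a gradient of secreted chemokine. Homeostatic receptors direct traffic within lymphoid organs and to the gut, whereas inflammatory receptors respond to chemokines made at sites of infection. Resting pDCs are known for surface CCR9, and CCR7 is the receptor with which activated dendritic cells reach T cell areas of lymph nodes.

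The library had 31408298 reads over 17664 genes. *Ncf1* had 33881 reads, and these values do not separate its alleles. The methods state that female mice 10 to 12 weeks of age were used. In this library the Y-linked gene *Ddx3y* had 3215 reads and *Xist* was listed at 0. All 37 mitochondrial genes were also listed at 0, so a gene listed at 0 is reported as such and not as absent. The gate for splenic pDCs was CD11c-intermediate, SiglecH+ and PDCA1+. All 9 pDC markers other than *Ccr9* had at least 10 reads, as did 53.2% of protein-coding genes. These markers include *Siglech* with 11735 reads, *Bst2* (PDCA1) with 52054 and *Tcf4*, a transcription factor of pDC identity, with 11239.

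The coding sequences of the 9 receptors were 57.5% to 65.0% identical over the 36 possible pairs, with a median of 61.0%. The 36 bases around the codons of the DRY motif, which couples the receptor to its G protein at the inner end of the third transmembrane helix, are shown because they are the same landmark in every member. Bases run 5′ to 3′ in the coding direction, and the capitals mark the 3 codons of the motif.
Ccr7: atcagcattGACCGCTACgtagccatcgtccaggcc
Ccr9: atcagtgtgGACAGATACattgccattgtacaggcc
Ccr2: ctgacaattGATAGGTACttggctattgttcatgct
Ccr1: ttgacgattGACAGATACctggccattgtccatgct
Cx3cr1: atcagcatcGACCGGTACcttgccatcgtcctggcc
Cxcr5: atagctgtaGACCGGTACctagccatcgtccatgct
Cxcr3: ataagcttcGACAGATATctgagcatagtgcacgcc
Cxcr4: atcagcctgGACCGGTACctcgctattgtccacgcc
Xcr1: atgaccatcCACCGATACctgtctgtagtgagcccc

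The first capital codon was GAC in 7 receptors and GAT in *Ccr2*, codons for aspartate, and CAC, a codon for histidine, in *Xcr1*. Each stretch lies in the last exon of its transcript in GENCODE M21, on GRCm38: chr11:99145612-99145647 for *Ccr7*, chr9:123779672-123779707 for *Ccr9*, chr9:124106123-124106158 for *Ccr2* and chr9:123964078-123964113 for *Ccr1*. The others are chr9:120051930-120051965 for *Cx3cr1*, chr9:44513891-44513926 for *Cxcr5*, chrX:101732590-101732625 for *Cxcr3*, chr1:128589494-128589529 for *Cxcr4* and chr9:123856261-123856296 for *Xcr1*. *Ccr9* and *Ccr2* lie on the plus strand and the others on the minus strand. The longest run shared by any pair of the 9 coding sequences was 16 bases, far below the 150 bases of a read.

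*Ccr7* was the leading receptor, with 82.9% (95% CI, 82.7 to 83.1) of the 139768 reads on the 9 genes. *Ccr9* held 12.2% (95% CI, 12.0 to 12.4), and the other 7 genes together held 4.91%. All 9 genes had at least 10 reads, whereas 53.2% of 21819 protein-coding genes did. Levels below are CPM, reads per 1000000 reads of the library, with Wilson 95% confidence intervals. Because CPM grows with transcript length, genes were compared by reads per kilobase of exon, with exact Poisson 95% intervals. Both intervals cover counting error only. Of the reads per kilobase of exon summed over the 9 genes, *Ccr7* held 94.8% and *Ccr9* 2.69%. These shares depend on the length used. Per kilobase of coding sequence *Ccr7* had 102165 reads and *Ccr9* 15401. By reads per kilobase the order was *Ccr7*, *Ccr9*, *Ccr2*, *Ccr1*, *Cx3cr1*, *Cxcr5*, *Cxcr3*, *Cxcr4* and *Xcr1*, and 8 of the 9 were above the median gene with reads, at 59.6 reads per kilobase. Among protein-coding genes with reads, among genes with at least 10 reads, and by CPM, 6 of the 9 were above the median gene, with *Cxcr3* and *Cxcr4* below it beside *Xcr1*.

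**Figure D1:**
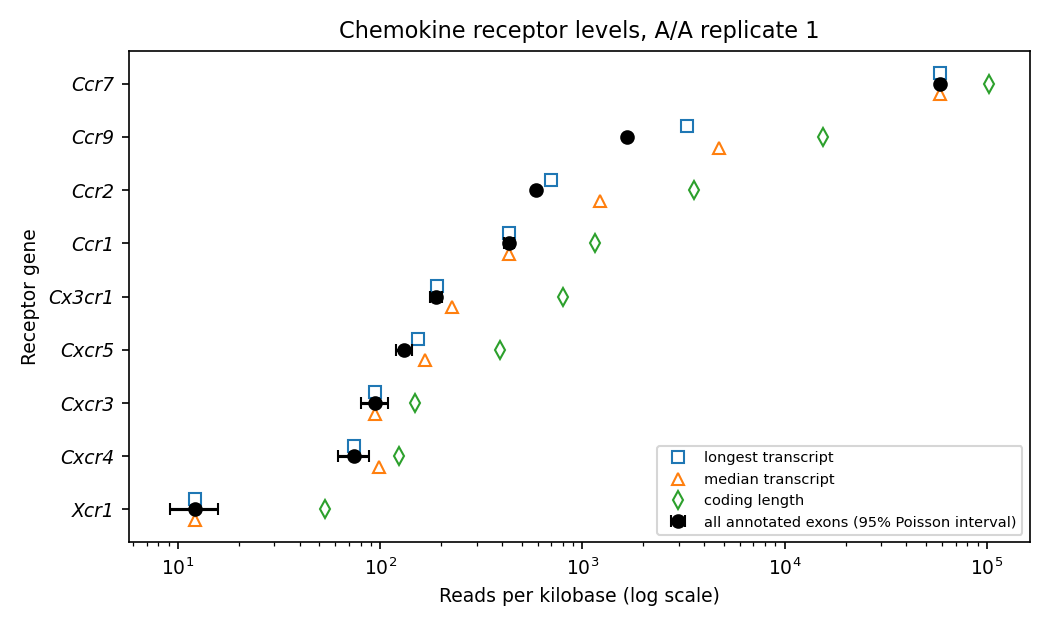
Reads per kilobase (x axis, log scale) of the 9 receptor genes (y axis) in A/A replicate 1, with reads divided by the length of all annotated exons (circles, with 95% Poisson intervals), of the longest transcript, of the median transcript or of the coding sequence. *Ccr7* lies highest and *Xcr1* lowest by every length, and *Ccr9* moves from 1662 to 15401 reads per kilobase between exon and coding length.

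*Ccr7* (ENSMUSG00000037944.8, chromosome 11, 99144196 to 99155077, minus strand), the receptor for CCL19 and CCL21, had 115855 reads, or 3689 CPM (95% CI, 3668 to 3710). It had 58572 reads per kilobase of exon and ranked 20th of the 17632 genes with reads and an exon length. It stood 35.2-fold above *Ccr9* per kilobase of exon (95% CI, 34.7 to 35.8), the second receptor in the order. That ratio depended on the length used, because *Ccr9* has 10.3 kb of annotated exon over 6 transcripts and *Ccr7* has 1.98 kb in 1 transcript. It was 17.9 per kilobase of the longest transcript, 12.4 per kilobase of the median transcript and 6.63 per kilobase of coding sequence. No exon of another gene overlapped *Ccr7*, and no 50-base window of it occurred in another gene's transcript. The 5 other markers of mature dendritic cells each had at least 10 reads, as did 53.2% of protein-coding genes. Of these markers the actin-bundling gene *Fscn1* had 13442 reads, the chemokine gene *Ccl22* 42302 and *Il4i1* 51127. Whether such cells contributed reads was not tested. In RNA from sorted cells, fewer cells of a type and less RNA per cell cannot be told apart.

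*Ccr9* (ENSMUSG00000029530.16, chromosome 9, 123678439 to 123784330, plus strand), the CCL25 receptor that directs cells to the small intestine and thymus, had 17049 reads, or 543 CPM (95% CI, 535 to 551). It had 1662 reads per kilobase of exon (95% CI, 1637 to 1687), at percentile 94.4 of the genes with reads, and 2.81-fold more than *Ccr2* (95% CI, 2.72 to 2.91). The ratio to *Ccr2* was 4.70 with the longest transcript, 3.84 with the median transcript and 4.31 with coding sequence, all outside that interval, which covers counting error only. Genes of the opposite strand overlapped 19.0% of its exon bases. Most of that was *AC165425.1*, with 665 reads in all, against 17049 on *Ccr9*. The lincRNA gene *Gm17200*, on the same strand, overlapped 2.62% of its exon bases and had 1244 reads. Of the 50-base windows of *Ccr9* transcripts, 20.1% occurred in another gene's transcript, and of the 150-base windows, 18.0%, the highest shares among the 9 receptors. Windows were matched on either strand and overlapping genes were kept, so these shares can include the same overlapped bases. The use of strand in counting is not given in the sources used here.

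**Figure D2:**
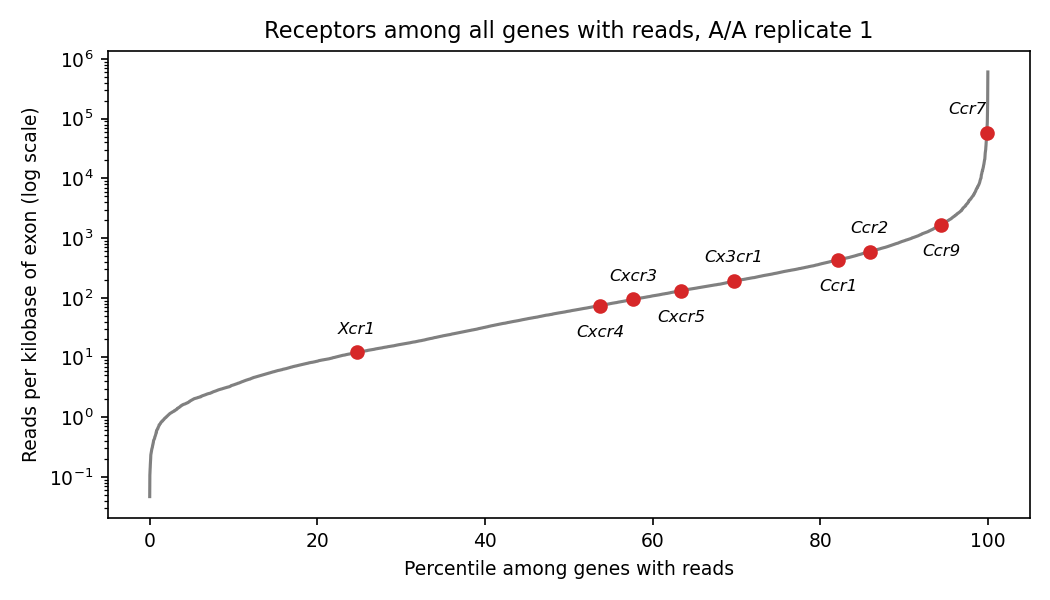
Reads per kilobase of exon (y axis, log scale) against percentile (x axis) for the 17632 genes with reads and an exon length in A/A replicate 1 (grey line), with the 9 receptors as red points. *Ccr7* lies on the steep upper end at percentile 99.9, and *Xcr1* lies at 24.7.

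Among inflammatory CC receptors, *Ccr2* (ENSMUSG00000049103.14, chromosome 9, 124101950 to 124113557, plus strand), the CCL2 receptor that drives egress of monocytes from bone marrow, had 3996 reads, or 127 CPM (95% CI, 123 to 131). It had 591 reads per kilobase of exon, at percentile 85.9. *Ccr1* (ENSMUSG00000025804.5, chromosome 9, 123962124 to 123968692, minus strand), a receptor for CCL3 and CCL5, had 1227 reads, or 39.1 CPM (95% CI, 36.9 to 41.3). Its 433 reads per kilobase of exon placed it at percentile 82.2. *Ccr2* was 1.36-fold above *Ccr1* per kilobase of exon (95% CI, 1.28 to 1.46) and 3.10-fold above it per kilobase of coding sequence, so their order held while its size did not. Of the 50-base windows of *Ccr2* transcripts, 1.91% occurred in another gene, and of the 150-base windows, 0.0451%.

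*Cx3cr1* (ENSMUSG00000052336.7, chromosome 9, 119901616 to 120069879, minus strand), the fractalkine receptor of patrolling monocytes and microglia, had 853 reads, or 27.2 CPM (95% CI, 25.4 to 29.0). It was the middle of the 9 genes, with 189 reads per kilobase of exon at percentile 69.7, and it was 2.29-fold lower than *Ccr1* per kilobase of exon (95% CI, 2.09 to 2.50) and 1.43-fold lower per kilobase of coding sequence. All 7 markers of monocytes and macrophages other than *Ccr2* and *Cx3cr1* had at least 10 reads, as did 53.2% of protein-coding genes. The 7 markers ran from 54 reads for *Mertk* and 787 for *Adgre1* to 37376 for *Ly6c2*, and their levels summed to 1951 CPM. Between these lay *Csf1r* with 1539 reads, *Fcgr1* with 5653, *Lyz2* with 6513 and *Cd68* with 9356. *Ly6c2* is also known in pDCs. The part of such cells in the reads on *Ccr2* and *Cx3cr1* was not tested.

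*Cxcr5* (ENSMUSG00000047880.15, chromosome 9, 44511787 to 44561877, minus strand), the CXCL13 receptor of follicular B cells and follicular helper T cells, had 437 reads, or 13.9 CPM (95% CI, 12.7 to 15.3). It had 131 reads per kilobase of exon, at percentile 63.4. Of 6 other B cell markers, *Cd79b* had 116 reads, *Ms4a1* 96 and *Cd79a* 73, and *Pax5*, *Cr2* and *Fcer2a* were listed at 0. Together these 6 genes had 9.07 CPM. Per kilobase of exon *Cd79b* had 81.1 reads, *Cd79a* 50.1 and *Ms4a1* 15.5, against 131 for *Cxcr5*. The part of B cells in the *Cxcr5* reads was not tested. *Bcl9l*, on the opposite strand, overlapped 3.30% of its exon bases and had 72 reads in all.

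*Cxcr3* (ENSMUSG00000050232.6, chromosome X, 101731535 to 101734269, minus strand), the receptor for CXCL9, CXCL10 and CXCL11, had 163 reads, or 5.19 CPM (95% CI, 4.45 to 6.05). *Cxcr4* (ENSMUSG00000045382.6, chromosome 1, 128588199 to 128592293, minus strand), the CXCL12 receptor that retains cells in bone marrow, had 134 reads, or 4.27 CPM (95% CI, 3.60 to 5.05). Per kilobase of exon they had 94.2 (95% CI, 80.3 to 110) and 74.1 reads (95% CI, 62.1 to 87.8). The ratio of *Cxcr3* to *Cxcr4* was 1.27 per kilobase of exon (95% CI, 1.005 to 1.61) and 0.951 with the median transcript length, so their order depended on the length used. They were the only neighbours in the order whose intervals per kilobase of exon overlapped.

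*Xcr1* (ENSMUSG00000060509.4, chromosome 9, 123852315 to 123862029, minus strand), the XCL1 receptor that defines type 1 conventional dendritic cells (cDC1), had 54 reads, or 1.72 CPM (95% CI, 1.32 to 2.24). Its 12.1 reads per kilobase of exon were 6.11-fold lower than those of *Cxcr4*, with an interval from 4.42 to 8.55. The gap was 2.34-fold per kilobase of coding sequence and 8.16-fold per kilobase of the median transcript. Other cDC1 markers ranged widely. *Clec9a*, a receptor for dead cells, had 2322 reads and the adhesion gene *Cadm1* had 3044, whereas the transcription factor gene *Batf3* had 48 and *Itgae* had 242. All 5 cDC1 markers other than *Xcr1* had at least 10 reads, as did 53.2% of protein-coding genes. The 5 markers include *Irf8*, with 93189 reads, which pDCs also express. The part of cDC1 in the *Xcr1* reads was not tested.

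Outside the 9 genes, 5 of 15 further receptors that were compared had at least 10 reads and 8 were listed at 0. Over protein-coding genes, 53.2% had at least 10 reads. Of the 52550 genes of all types, 17664 had reads and the rest were listed at 0. The highest of the 15 was *Ccrl2*, an atypical receptor that presents chemerin, with 3697 reads (118 CPM). *Cmklr1*, the chemerin receptor, had 41 reads, *Cxcr2* 36, *Ccr6* 19 and *Ackr4* 17. *Ackr1* had 6 reads and *Ccr4* had 2. Listed at 0 were *Ccr1l1*, *Ccr3*, *Ccr8*, *Ccr10*, *Cxcr1*, *Cxcr6*, *Ackr2* and *Ackr3*. The 9 receptors described held 97.3% of the 143586 reads on these 24 genes, and *Ccr7* alone had 115855 of these reads. *Ccr9* was 1.17-fold above *Ccrl2* per kilobase of exon (95% CI, 1.13 to 1.21) and 4.50-fold above it per kilobase of coding sequence.

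**Figure D3:**
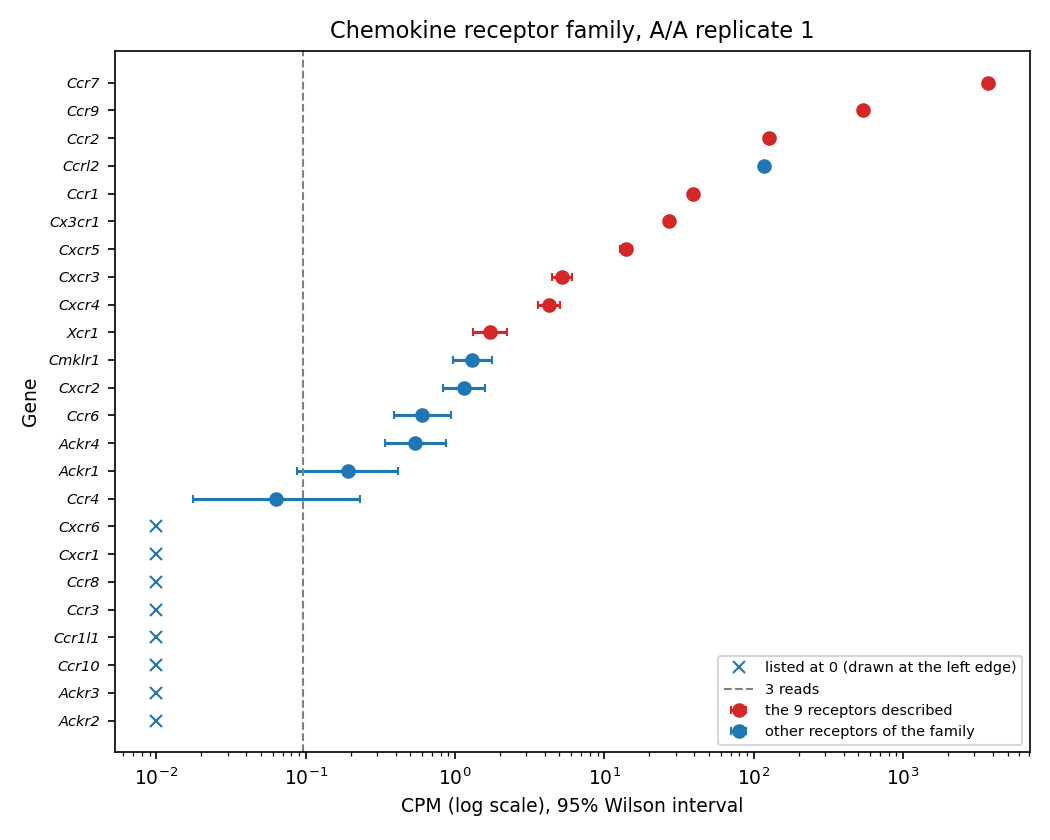
CPM (x axis, log scale) with Wilson 95% intervals for 24 chemokine receptor genes (y axis) in A/A replicate 1, the 9 described in red and the others in blue, with crosses at the left edge for 8 genes listed at 0 and a dashed line at 3 reads. *Ccrl2* is the blue point that lies among the red ones.

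Of the 9 receptors, 6 lie on chromosome 9. In the 435 kb from the start of *Ccr9* to the end of *Ccr2*, the values list 9 protein-coding genes, 7 of them chemokine receptors. Levels in this cluster did not follow position. *Ccr9* had 1662 reads per kilobase of exon, *Xcr1* had 12.1, *Ccr1* 433 and *Ccr2* 591, while *Cxcr6*, *Ccr1l1* and *Ccr3*, which lie between them, were listed at 0. The 2 other genes of the interval, *Lztfl1* and *Fyco1*, had 420 and 113 reads per kilobase of exon.

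**Figure D4:**
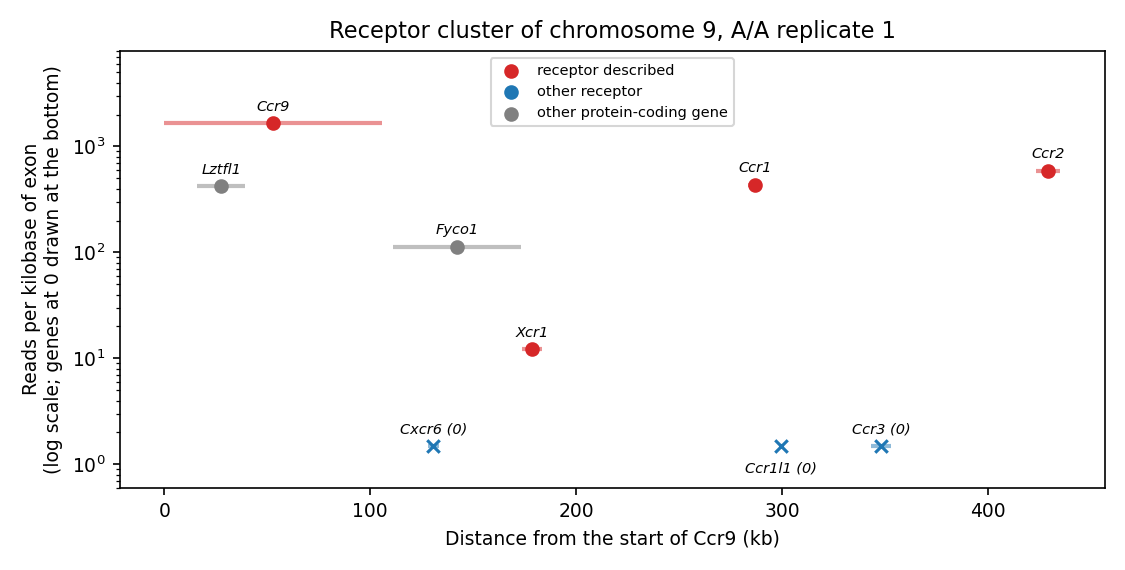
Reads per kilobase of exon (y axis, log scale) of the 9 protein-coding genes of the chromosome 9 receptor cluster against distance from the start of *Ccr9* in kb (x axis), with bars for the extent of each gene. Receptors described are red, other receptors blue and other genes grey, and the 3 receptors listed at 0 are crosses at the bottom.

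Set beside their ligands, the receptors fell into unlike groups. For *Ccr7*, *Cxcr4* and *Cxcr5*, which guide cells within lymphoid organs and marrow, every ligand gene examined (*Ccl19* and *Ccl21a*, *Cxcl12*, and *Cxcl13*) was listed at 0. *Ccl21a* has near-identical copies in the mouse genome, among which reads can be lost. *Ccl25*, the ligand of CCR9, had 49 reads, or 6.58 per kilobase of exon. The CCR2 ligand genes *Ccl2*, *Ccl7* and *Ccl12* had 75, 35 and 19 reads.

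The reverse was seen for 4 receptors, each with at least 1 ligand gene above it per kilobase of exon. *Cxcl10*, *Cxcl11* and *Cxcl9* had 28878, 746 and 698 reads per kilobase of exon, against 94.2 for *Cxcr3*. *Xcl1* had 7216, against 12.1 for *Xcr1*, the lowest receptor. *Ccl5*, *Ccl3* and *Ccl9* had 88052, 5649 and 1490, against 433 for *Ccr1*, while *Ccl6* had 333 and *Ccl7* 43.7. With the median transcript length *Ccl6* had 771 and *Ccr1* again 433, so the order of these 2 genes depended on the length used. *Cx3cl1* had 298, against 189 for *Cx3cr1*.

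**Figure D5:**
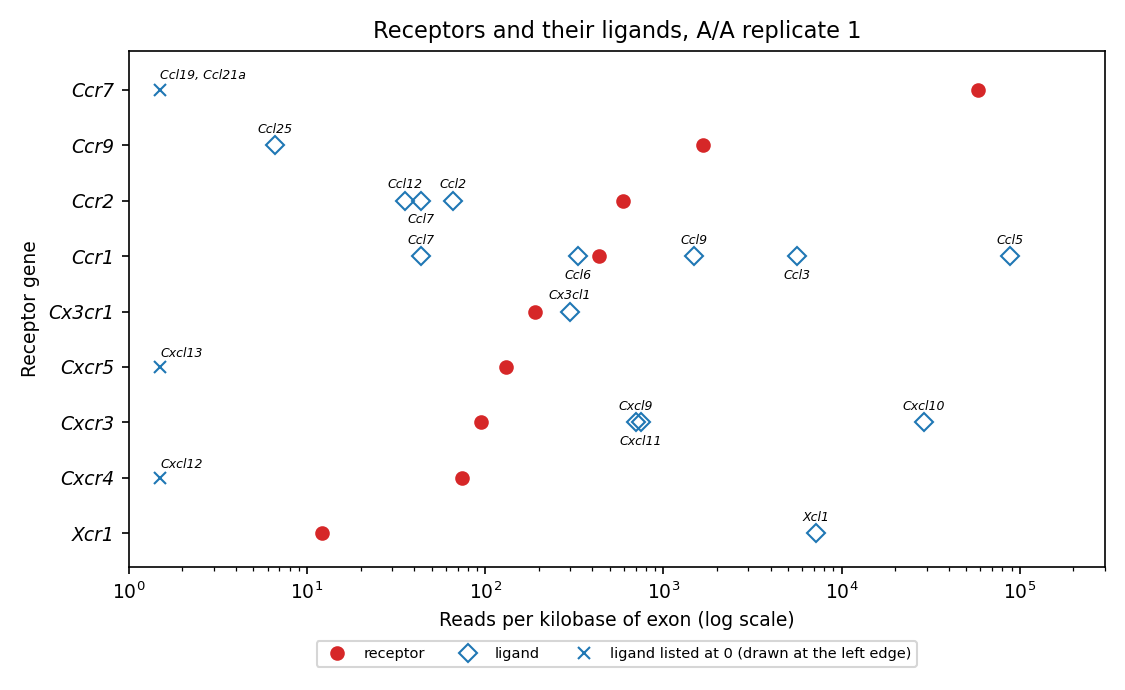
Reads per kilobase of exon (x axis, log scale) of each receptor gene (red circle) and of the ligand genes of that receptor (blue diamonds) in A/A replicate 1, with 1 row for each receptor (y axis) and crosses at the left edge for ligands listed at 0. Ligands lie to the left of *Ccr7*, *Ccr9* and *Ccr2* and to the right of *Cxcr3*, *Cx3cr1* and *Xcr1*.

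Of 26 genes of signal transduction and desensitisation of these receptors, 25 had at least 10 reads and *Grk5*, a receptor kinase, was listed at 0. Over protein-coding genes the share with at least 10 reads was 53.2%. *Rac2*, a GTPase of the actin cytoskeleton, was the highest, with 9342 reads per kilobase of exon (28988 reads in all). *Rap1b*, which activates integrins, was next, with 8119 (23415 reads in all). *Gnai2*, the main inhibitory G protein subunit of leukocyte chemotaxis, had 18138 reads in all and *Dock2*, the exchange factor for RAC in migrating leukocytes, had 13178. Among genes that switch off the signal, *Rgs1* had 16168 reads, the arrestin gene *Arrb2* had 611 and its paralog *Arrb1* had 53. The other *Rgs* genes of the list ran from 51 reads for *Rgs16* to 8220 for *Rgs2*. The receptor kinase genes other than *Grk5* had 6877 reads for *Grk3*, 1352 for *Grk2* and 861 for *Grk6*. Of 10 adhesion and egress genes, 9 had at least 10 reads. *Selplg*, the selectin ligand PSGL-1, was the highest of them, with 8210 reads per kilobase of exon and 35073 reads in all. *Cd69*, whose product removes S1PR1 protein from the surface, had 10451 reads in all. The egress receptor gene *S1pr1* was listed at 0, and the related receptor gene *S1pr4* had 3015 reads. Any link between these values was not tested.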

How the data were processed

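Splenic pDCs were sorted, stimulated with R848 and profiled by mRNA-Seq with 150 bp paired-end reads. The submitters' processing notes name HISAT2, StringTie, mm10 and mm8, with no versions, and the methods name DESeq2 for comparisons. The deposited signal is 1 value for each gene. Its unit is not stated. Of the values above 0 that the authors deposited, 100% were whole multiples of 1.19 (within 0.001), the form of counts divided by 1 factor, from which the unit was inferred. Division by that step gave 31408298 counts, called reads here, although counts estimated with StringTie need not be single sequenced reads.

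Gene identifiers matched GENCODE M21 (GRCm38) for 99.7%, with identical coordinates for 95.2% of these. Reads per kilobase used all annotated exons of a gene. Percentiles were taken among genes with reads, ties at the midpoint. The floor was 3 reads (0.0955 CPM), and detection meant at least 10 reads. No molecular identifiers are named in the sources used here, so PCR copies may count as separate reads. Shared sequence was counted as identical windows in annotated transcripts on either strand, with overlapping genes included, and coding sequences were aligned globally. The tools were Biopython 1.88, matplotlib 3.10.9, numpy 2.4.6, pandas 2.3.3 and scipy 1.17.1 under Python 3.11.15.

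The 9 receptors, the gene lists and the limits were chosen with earlier results of these data known. Named genes are the 9 receptors, with their ligands and markers, and from each other list at most the highest 2 and lowest 2. The remaining receptors outside the 9 were named after their values were seen. So were *Gnai2*, *Dock2*, *Rgs1*, *Rgs2*, *Rgs16*, *Grk2*, *Grk3*, *Grk6*, the arrestin genes, *Cd69* and *S1pr4*. The same holds for *Il4i1*, *Irf8*, *Lyz2*, *Fcgr1*, *Csf1r* and the genes overlapping or neighbouring a receptor. *Itgam*, on the list of type 2 conventional dendritic cell markers, had no unique row and was not analysed here. Some genes of the lists are not reported here. Alternatives were other lengths, totals, ranked genes and detection limits. Of other marker lists, 4 of 5 genes of type 2 conventional dendritic cells and 3 of 9 of T cells had at least 10 reads. So did 1 of 6 of NK cells and 4 of 6 of neutrophils, beside 53.2% of protein-coding genes. Their highest in reads were *Sirpa* (2121 reads), *Cd8a* (10413), *Klrk1* (8053) and *Csf3r* (670). *Cd8a* is also known in a part of mouse splenic pDCs. Genes listed at 0 numbered 1 of 5 for type 2 conventional dendritic cells, 6 of 9 for T cells, 5 of 6 for NK cells and 2 of 6 for neutrophils. Of the 52550 genes of all types, 17664 had reads and the rest were listed at 0.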

Additional observations from a re-analysis of the deposited data

How the results depend on the processing

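No paired analysis was possible because values of 1 library were analysed here, and no replicate could be left out. The median level of the 9 receptors was 6.03 reads per kilobase of exon per 1000000 reads. It was 6.04 with the longest transcript, 7.24 with the median transcript length, 6.68 with the total taken without the 10 highest genes and 25.6 with coding length, which was chosen after seeing the data. Without a length the median was 27.2 CPM, another unit. Shorter lengths and a smaller total raise these values by construction. The median percentile of 69.7 became 59.9 among protein-coding genes with reads, 63.0 among genes with at least 10 reads and 89.8 among all genes, shifts that follow from the genes ranked. The receptors above the median gene numbered 8 of 9 among genes with reads, 6 among protein-coding genes, among genes with at least 10 reads and by CPM, where *Cxcr3* and *Cxcr4* fell below it, and 9 among all genes. By CPM, also chosen after seeing the data, it was 71.2, and the cause was not tested. The order of the 9 receptors was the same under 4 of the 5 alternatives in length or total. Of these, the changed total divides every receptor by the same number, so it could not alter the order. *Cxcr3* and *Cxcr4* changed places with the median transcript length. All 9 receptors were detected at every limit tried. The limits of more than 3 reads and of any value above 0 are looser than 10 reads, so they could not lower that count. Of the 15 other receptors, 5 had at least 10 reads and 6 more than 3 reads. At least 1 CPM was reached by 3, and 7 had a value above 0, counts that follow from the limits. Of all 52550 genes, 17664 had a value above 0. The shares over all genes at more than 3 reads and at 1 CPM are not given here. Depth limited *Xcr1*, whose interval ran from 1.32 to 2.24 CPM.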
